A study of Mus musculus with 8 samples.

Results

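Sites of ASH2L, a core subunit of the KMT2 (COMPASS) H3K4 methyltransferase complexes, were examined at the nuclear genes of oxidative phosphorylation. The members were taken by symbol (the Nduf, Sdh, Uqcr, Cyc1, Cycs, Cox4 to Cox8 and Atp5 families) among the protein-coding genes of the 21 assembled nuclear chromosomes of mm10, which gave 96 annotated genes of 95 symbols out of 21938 protein-coding genes. Atp5o was annotated under 2 gene identifiers, of which the second is a readthrough with a single transcription start site (TSS). By complex the members comprised 36 genes of complex I, 4 of complex II, 9 of complex III, Cycs, 20 of complex IV and 17 of complex V. The symbols also took in 8 Ndufaf assembly factors of complex I and Atp5s, which is not a subunit.

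Chromatin immunoprecipitation sequencing (ChIP-seq) had been carried out on 8 libraries of immortalised mouse embryo fibroblasts (iMEF). There were 2 replicates each of ASH2L precipitates and of input chromatin, from cells without dTAG and from cells given dTAG for 1 h. The cells of all groups had the same origin. The parental iMEF cells were Ash2l fl/fl and carried Cre-ER, a recombinase that can be switched on. They received a lentiviral construct for human ASH2L fused to FKBP12F36V and HA tags. Switching Cre-ER on removed exon 4 of the mouse gene, after which the cells were cloned. The ASH2L of these cells was therefore the tagged human protein, made from a lentiviral construct, in a clonal line. The compound dTAG binds the FKBP12F36V part and brings the fusion protein to a ubiquitin ligase for degradation. The labels name Ash2l as the antigen, whereas the study's methods describe antibodies against HA. The analysed list holds the positions of 6444 sites pooled over all libraries, 6428 of them on the nuclear chromosomes. It has no column per library and no height or score. Consequently neither depth nor replicate spread could be attached to a site, and untreated and dTAG-treated cells could not be compared from it. A gene was counted as having a promoter site when a site was centred within 1 kb of any of its annotated TSSs. Positions upstream or downstream are given from the nearest of these TSSs, which can lie inside the gene.

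Oxidative phosphorylation couples electron transport through complexes I to IV of the inner mitochondrial membrane to ATP synthesis by complex V. Complex I oxidises NADH, complex II oxidises succinate, complex III passes the electrons on to cytochrome c, and complex IV reduces oxygen. Most subunits are encoded in the nucleus, and their promoters are typically CpG-rich and known as targets of NRF1, GABPA (an ETS factor) and YY1. KMT2 complexes are known to methylate H3K4 at both promoters and enhancers, and H3K4me3 marks the start of active genes, many of them at CpG islands.

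The promoters that the comparisons below turn on are shown first, as RefSeq gives them on GRCm38.p6 from 250 bases before to 50 bases after the gene's start. In the first set capitals mark exact matches to 7 letter patterns, searched on both strands and listed with the motif counts. Cycs, at chr6:50566520-50566819 (minus strand), is shown as the electron carrier, Cox6a1, at chr5:115348909-115349208 (minus strand), as a widely expressed complex IV subunit, Atp5j, at chr16:84835576-84835875 (minus strand), because its site is shared with Gabpa, and Ndufs6, at chr13:73328433-73328732 (minus strand), because its site is shared with a mitochondrial ribosomal protein gene.
Cycs: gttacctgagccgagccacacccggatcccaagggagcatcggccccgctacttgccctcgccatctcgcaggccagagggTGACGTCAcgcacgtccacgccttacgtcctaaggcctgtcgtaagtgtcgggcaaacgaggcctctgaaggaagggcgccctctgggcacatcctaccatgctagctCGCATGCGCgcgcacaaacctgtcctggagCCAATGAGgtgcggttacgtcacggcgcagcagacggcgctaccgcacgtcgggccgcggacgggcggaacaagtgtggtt
Cox6a1: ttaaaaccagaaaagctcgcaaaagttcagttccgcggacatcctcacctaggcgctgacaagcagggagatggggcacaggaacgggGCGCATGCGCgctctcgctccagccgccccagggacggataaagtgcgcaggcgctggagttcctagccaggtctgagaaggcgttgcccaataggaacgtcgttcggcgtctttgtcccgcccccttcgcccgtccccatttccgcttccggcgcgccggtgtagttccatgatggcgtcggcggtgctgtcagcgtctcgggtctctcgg
Atp5j: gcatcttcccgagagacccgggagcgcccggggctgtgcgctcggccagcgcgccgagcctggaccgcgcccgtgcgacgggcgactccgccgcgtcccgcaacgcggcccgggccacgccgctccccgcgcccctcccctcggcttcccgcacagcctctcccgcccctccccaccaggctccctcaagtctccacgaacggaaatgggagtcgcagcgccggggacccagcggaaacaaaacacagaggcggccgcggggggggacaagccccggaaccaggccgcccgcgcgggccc
Ndufs6: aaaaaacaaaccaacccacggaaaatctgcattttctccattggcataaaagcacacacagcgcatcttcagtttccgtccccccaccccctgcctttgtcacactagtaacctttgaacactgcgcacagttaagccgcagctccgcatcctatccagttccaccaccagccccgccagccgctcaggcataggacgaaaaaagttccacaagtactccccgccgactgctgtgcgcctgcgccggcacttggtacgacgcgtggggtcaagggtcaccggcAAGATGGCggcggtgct

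All 4 of these genes had an ASH2L site, which covered 95 of the 300 bases of Cycs, 102 of Cox6a1, 187 of Atp5j and 40 of Ndufs6. In Cycs the CRE match began 169 bases before the start and lay inside the site, whereas the NRF1 match at 61 bases and the NFY match at 31 bases before the start lay outside it. In Cox6a1 the capitals are overlapping NRF1 matches on both strands that begin 162 and 161 bases before the start, outside the site. In Ndufs6 the YY1 match began at base 34 after the start and lay inside the site. Atp5j is printed with no capitals because none of the patterns occurs in this window, and its YY1 match was in the window of a second RefSeq start.

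The second set compares paralogues of which only some had a site, with each CG dinucleotide in capitals. Atp5g1, at chr11:96075582-96075881 (minus strand), Atp5g2, at chr15:102670998-102671297 (minus strand), and Atp5g3, at chr2:73911277-73911576 (minus strand), encode the same mature c-ring protein of the ATP synthase. Cox7a1, at chr7:30183921-30184220 (plus strand), is the heart and muscle form of a complex IV subunit, and Cox7a2, at chr9:79759804-79760103 (minus strand), is its widely expressed form.
Atp5g1: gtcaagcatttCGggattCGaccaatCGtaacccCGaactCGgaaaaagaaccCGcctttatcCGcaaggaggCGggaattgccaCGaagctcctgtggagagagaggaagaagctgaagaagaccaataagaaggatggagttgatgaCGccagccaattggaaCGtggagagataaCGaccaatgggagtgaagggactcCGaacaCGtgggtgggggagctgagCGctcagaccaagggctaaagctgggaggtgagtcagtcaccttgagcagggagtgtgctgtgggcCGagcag
Atp5g2: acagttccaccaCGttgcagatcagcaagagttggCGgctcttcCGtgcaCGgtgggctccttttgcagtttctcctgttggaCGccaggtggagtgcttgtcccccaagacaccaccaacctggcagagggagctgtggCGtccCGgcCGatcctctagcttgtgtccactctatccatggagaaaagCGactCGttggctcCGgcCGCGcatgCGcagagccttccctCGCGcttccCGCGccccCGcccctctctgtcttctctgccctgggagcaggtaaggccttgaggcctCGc
Atp5g3: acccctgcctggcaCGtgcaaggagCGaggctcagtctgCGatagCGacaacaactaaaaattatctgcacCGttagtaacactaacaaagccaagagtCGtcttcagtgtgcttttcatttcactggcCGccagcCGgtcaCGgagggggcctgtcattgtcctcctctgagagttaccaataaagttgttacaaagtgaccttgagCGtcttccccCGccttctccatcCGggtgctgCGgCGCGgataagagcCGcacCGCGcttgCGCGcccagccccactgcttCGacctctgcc
Cox7a1: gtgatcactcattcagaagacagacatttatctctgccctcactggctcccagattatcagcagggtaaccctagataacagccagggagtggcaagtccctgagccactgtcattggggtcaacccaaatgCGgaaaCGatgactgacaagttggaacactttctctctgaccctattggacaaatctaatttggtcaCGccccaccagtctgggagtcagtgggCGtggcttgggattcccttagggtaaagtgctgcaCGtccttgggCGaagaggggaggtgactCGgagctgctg
Cox7a2: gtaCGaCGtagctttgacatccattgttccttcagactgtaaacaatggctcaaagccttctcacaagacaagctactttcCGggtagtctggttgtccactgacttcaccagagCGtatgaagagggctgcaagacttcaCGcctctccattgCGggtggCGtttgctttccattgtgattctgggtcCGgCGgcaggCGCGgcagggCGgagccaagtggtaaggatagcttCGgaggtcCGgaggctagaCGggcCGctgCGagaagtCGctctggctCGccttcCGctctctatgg

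Of the c-ring genes only Atp5g2 had a site, which covered 244 of the 300 bases. Its window held 20 CG dinucleotides, between the 16 of Atp5g1 and the 21 of Atp5g3, which had none. Their nearest sites were 9561 and 17970 bp away. The Cox7a2 window held 20 CG dinucleotides and its site covered 80 of the bases. The Cox7a1 window held 7, and the nearest site was 10689 bp away. Over the members with a RefSeq window the median was 21.5 CG dinucleotides for 30 genes with a site (95% interval 19 to 25) and 18 for 47 genes without (15 to 22), against 13 over 17492 protein-coding genes. The intervals of the member groups overlapped.

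Of the 96 members, 38 had an ASH2L promoter site, which is 39.6% (Wilson 95% interval 30.4 to 49.6%). Over all protein-coding genes the share was 14.0%, namely 3078 of 21938. CpG islands (windows of 200 bp with over 50% GC and a ratio of observed to expected CpG above 0.6) were found near a TSS of every member, that is, no farther than 1 kb away. The share over the 16099 protein-coding genes with such an island was 19.0%, and the members' interval lay above that value as well. Wilson intervals here cover counting error over genes only, and genes are not replicates of a condition. Without the assembly factors and Atp5s, 35 of 87 genes had a site (40.2%). The remaining 58 members had no site centred within 1 kb.

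**Figure D1:**
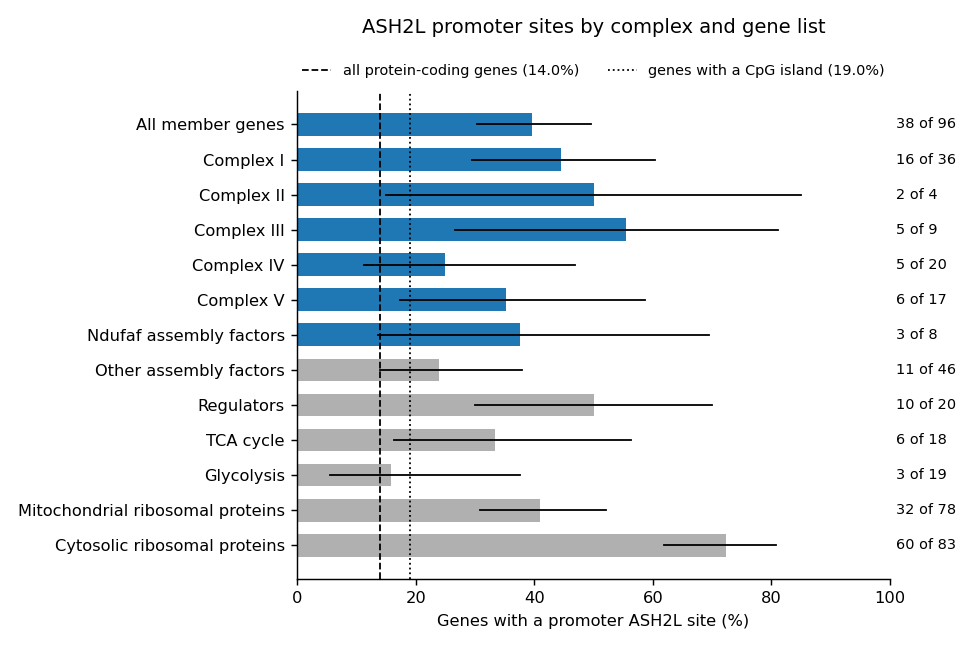
Percent of genes with a promoter ASH2L site (horizontal axis) for all members and each complex (blue bars) and for 6 other gene lists (grey bars), with Wilson 95% intervals as lines and the gene counts at the right. The dashed line is the 14.0% of all protein-coding genes and the dotted line the 19.0% of genes with a CpG island. The blue bar of complex IV is the shortest, at 25.0%, and that of complex III the longest, at 55.6%, which falls to 22.2% with sites wider than 200 bp only.

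By complex, sites were found at 16 of 36 genes of complex I (44.4%, 29.5 to 60.4%), 2 of 4 of complex II, 5 of 9 of complex III (55.6%, 26.7 to 81.1%), 5 of 20 of complex IV (25.0%, 11.2 to 46.9%) and 6 of 17 of complex V (35.3%, 17.3 to 58.7%). Cycs had a site, and so did 3 of the 8 Ndufaf assembly factors, whereas Atp5s had none. The intervals of all complexes overlapped, and the differences between complexes were not tested. Those of complexes I and III lay above the 19.0% of island genes, and those of complexes II, IV and V included it. With sites wider than 200 bp only, complex III had 2 of 9 genes with a site (22.2%, 6.32 to 54.7%), and its interval then included 19.0%. Leaving out the 8 tissue-restricted or inducible genes of complex IV was chosen after the data were seen. None of the 8 had a site, so the share could only rise. Complex IV then had 5 of 12 (41.7%, 19.3 to 68.0%), with an interval just above 19.0%. None of the 8 had an island under the stricter definition given with the CpG counts below. Over the 13148 protein-coding genes with such a stricter island the share was 22.7%, which the interval of the 12 genes included.

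Complex I is the entry point of electrons from NADH. Its core subunits carry the flavin and the iron-sulfur clusters, and the accessory subunits surround them. Of the core genes 5 of 7 had a site, among them Ndufs1, Ndufs7, Ndufv1 and Ndufv2. Of the accessory genes 11 of 29 had one. By position in the enzyme, which was looked at after the values were seen, sites were found at 10 of 16 genes of the matrix arm (62.5%, 38.6 to 81.5%) and at 6 of 19 of the membrane arm (31.6%, 15.4 to 54.0%). These intervals overlapped, and the difference was not tested. Ndufab1, the acyl carrier protein that sits in both arms, had no site.

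In the matrix arm Ndufs1, the largest core subunit, had the widest site of all members, 618 bp at chr1:63176560-63177177, centred 35 bp upstream of the TSS. A second site of 311 bp was centred 625 bp upstream. Both lie at the divergent promoter of Eef1b2, a translation elongation factor gene. Ndufv1, which binds NADH and the flavin, had a 207 bp site 69 bp downstream of a TSS, and Ndufv2, which carries an iron-sulfur cluster beside it, had a 395 bp site 207 bp downstream. Ndufs7, whose cluster hands electrons to ubiquinone, had a 264 bp site 70 bp upstream of an internal TSS. That site was centred 258 bp downstream of the outermost start of the gene.

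The accessory matrix-arm genes with a site were Ndufa2, Ndufa5, Ndufa12, Ndufs4 and Ndufs6. Ndufs4, a small subunit whose loss causes Leigh syndrome, had the widest of these, 474 bp. The membrane-arm genes with a site were Ndufa10, Ndufb3, Ndufb7, Ndufb8, Ndufb9 and Ndufc2. The site of Ndufb7, at chr8:83566603-83566909, was the closest of all to a TSS, 2 bp upstream, and that of Ndufb3 was 524 bp wide. The 20 complex I genes without a site included Ndufa1, Ndufa3, Ndufa6, Ndufa7, Ndufa8, Ndufa9, Ndufa11, Ndufa13, Ndufab1, Ndufb2, Ndufb4, Ndufb5, Ndufb6, Ndufb10, Ndufb11, Ndufc1, Ndufs3, Ndufs5, Ndufs8 and Ndufv3.

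Complex II feeds electrons from succinate, and its subunits are also the succinate dehydrogenase of the tricarboxylic acid cycle. The flavoprotein gene Sdha had a 235 bp site at chr13:74349678-74349912, centred 362 bp downstream in an intron and near Ccdc127. Sdhd, a membrane anchor, had a 275 bp site 194 bp downstream, shared with Timm8b, which encodes a small chaperone of mitochondrial import. The iron-sulfur subunit gene Sdhb and the other anchor gene Sdhc had none, with the nearest sites 116936 and 38907 bp away.

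Complex III passes electrons from ubiquinol to cytochrome c. Both nuclear genes of its redox subunits had a site. That of Cyc1 (cytochrome c1) was 200 bp wide and centred 49 bp downstream in coding sequence, and that of Uqcrfs1 (the Rieske iron-sulfur protein) was 253 bp wide and 57 bp downstream. Of the other subunits Uqcrc2, Uqcrh and Uqcrq had a site. The site of Uqcrc2, a core scaffold subunit, was 200 bp wide and 55 bp downstream, and that of Uqcrq was 200 bp wide, 92 bp upstream and shared with Gdf9. Uqcrh, the hinge protein gene, had a 227 bp site 509 bp upstream and one of 340 bp 999 bp upstream, both shared with the divergent gene Lrrc41. Uqcr10, Uqcr11, Uqcrb and Uqcrc1 had none, at distances of 109489, 27103, 27298 and 133906 bp. The width of 200 bp is the smallest in the list, and 3 of the 5 complex III genes had only a site of that width. Cycs had a 216 bp site at chr6:50566725-50566940, centred 294 bp upstream.

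Complex IV is cytochrome c oxidase, several of whose subunits exist as a widely expressed and a tissue-restricted or inducible form. Sites were found at Cox5a (348 bp, 39 bp downstream), Cox6a1 (368 bp, 88 bp downstream), Cox6c (466 bp, 5 bp upstream) and Cox7a2 (223 bp, 62 bp upstream). Cox7a2l, which joins complexes III and IV in supercomplexes, had a 384 bp site 6 bp downstream of a TSS that is 3 kb inside the gene's outermost start. The widely expressed genes Cox4i1, Cox5b, Cox6b1, Cox7b, Cox7c, Cox8a and Ndufa4 had none. None of the 8 restricted or inducible genes had a site, which allows a share of up to 37.5%. These were Cox4i2 (lung and hypoxia), Cox6a2, Cox7a1 and Cox8b (heart and muscle), Cox6b2, Cox7b2 and Cox8c (testis) and Ndufa4l2 (hypoxia).

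In the paralogue pairs Cox6a1 and Cox6a2, and Cox7a1 and Cox7a2, only the widely expressed gene had a site. In the pairs Cox4i1 and Cox4i2, Cox6b1 and Cox6b2, Cox7b and Cox7b2, and Ndufa4 and Ndufa4l2, and in the triplet Cox8a, Cox8b and Cox8c, no gene had one. The restricted genes had 14 to 38 CpG per kb at their CpG-richest TSS (median 21.5, n = 8), against a median of 59.5 for the other 12 complex IV genes (26 to 131), of which the lowest was Cox7b. Over all protein-coding genes with under 40 CpG per kb, 1.44% had a site. Restricted expression and low CpG density therefore cannot be told apart here.

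Complex V makes ATP with the F1 part, which holds the catalytic sites, a rotating c ring and a peripheral stalk. Of the 5 genes of F1 only Atp5b, the catalytic beta subunit, was counted, through sites of 200 and 227 bp in coding sequence. These lay 235 and 170 bp upstream of internal TSSs, and 2238 and 5048 bp downstream of the outermost start of the gene, within 1 kb of which no site was found. Atp5a1, Atp5c1, Atp5d and Atp5e had none. In the stalk Atp5f1 (209 bp, 65 bp downstream), Atp5j (302 bp, 9 bp upstream) and the main entry of Atp5o (200 bp, 58 bp upstream) had a site, and Atp5h did not. The readthrough entry of Atp5o was 4763 bp from the same site. Without that entry, 3 of 4 stalk genes and 6 of 16 complex V genes had a site. Atp5g2 had the widest site of the complex, 612 bp at chr15:102670630-102671241, centred 192 bp downstream. Of the membrane accessory genes Atp5l had a 490 bp site 299 bp upstream, and Atp5j2, Atp5k and Atp5mpl had none.

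Among the assembly factors, which help to build complex I but are not part of it, Ndufaf1 (313 bp, 48 bp upstream), Ndufaf5 (298 bp, 293 bp upstream) and Ndufaf7 (424 bp, 252 bp upstream) had a site. Ndufaf2, Ndufaf3, Ndufaf4, Ndufaf6 and Ndufaf8 had none.

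**Figure D2:**
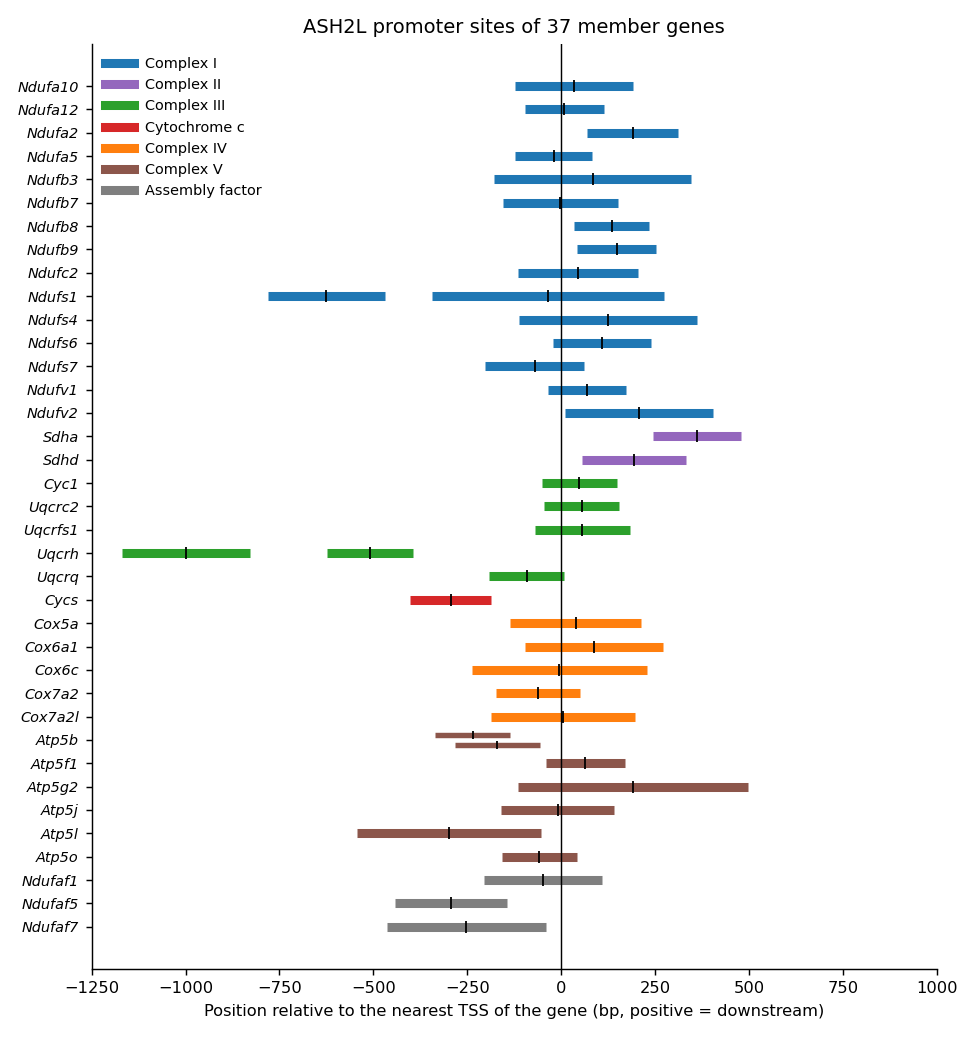
Extent (bars) and centre (ticks) of the promoter ASH2L sites of 37 of the 38 members with a site, in bp from the nearest TSS of the gene, with downstream positive and colours by complex. The sites of Atp5b belong to different TSSs and are drawn one above the other. The nearest centres lie within 500 bp of the TSS except that of Uqcrh, at 509 bp, and the second site of Uqcrh, at 999 bp upstream, is the farthest.

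The 38 members had 41 promoter sites. Their median width was 264 bp (95% interval 227 to 314, range 200 to 618), against 305 bp (299 to 314) for the 3127 other promoter sites of protein-coding genes. A width of 500 bp or more was found for 3 of the 41 (7.32%, 2.52 to 19.4%) and for 17.2% of the others, and the smallest width for 6 of 41 (14.6%) and 9.18%. The median width per complex ran from 213.5 bp in complex III (n = 6) to 368 bp in complex IV (n = 5), with overlapping ranges. Widths depend on the authors' peak calling and are no measure of the amount of ASH2L.

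The nearest site of each member was centred a median of 22 bp downstream of the TSS (95% interval -35 to 65), against 43 bp (34 to 51) in the 3040 other genes with a site. The centre was downstream in 21 of 38 members (55.3%) and upstream in 17. Measured from the outermost gene start alone, the median was 145 bp and 76.5% of 34 members had the centre downstream. In distance the median was 77 bp (55 to 145) for the members and 123 bp (117 to 130) for the others, and these intervals overlapped. The site covered a TSS in 25 of the 38 (65.8%), against 59.7%. The centre fell in an untranslated region in 10 members, in coding sequence in 9, in an intron in 8, outside the gene in 8 and in an exon of a noncoding transcript in 3. More than 1 promoter site was found for Ndufs1, Uqcrh and Atp5b (3 of 38, 7.89%), against 14.9% of the other genes.

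**Figure D3:**
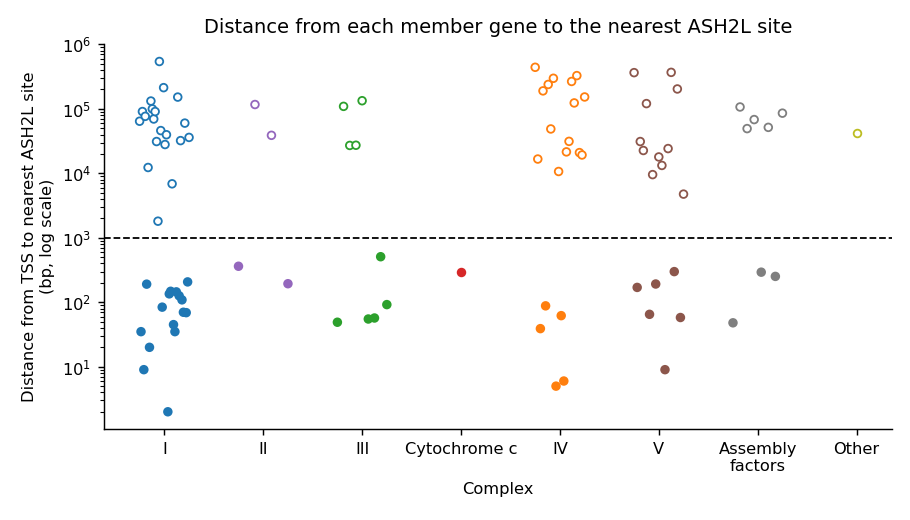
Distance from the TSS to the nearest ASH2L site (bp, log scale) for each of the 96 members by complex, with filled points for members with a promoter site and open points for those without. The dashed line is the 1 kb limit, and no member lies between Uqcrh at 509 bp and Ndufb10 at 1811 bp.

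The members fell into those with a site close to a TSS and those far from any. Just inside the limit of 1 kb stood Uqcrh, with its nearest site at 509 bp, and just outside it Ndufb10, with a 270 bp site at chr17:24720704-24720973 centred 1811 bp downstream. No other member without a site had one within 3 kb. For 27 members (28.1%) the nearest site was between 3 and 50 kb away and for 30 (31.25%) it was farther. Over all protein-coding genes these shares were 21.7% and 62.9%. The median was 55939.5 bp (36108 to 90964) for the 58 members without a site, against 124454 bp (121113 to 127741) for the other protein-coding genes without one. The farthest was Ndufb11 on the X chromosome, at 543763 bp.

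Other ways of assigning sites moved few members. With a window of 500 bp there were 37 members, without Uqcrh (12.5% of all protein-coding genes), and with 3 kb there were 39, with Ndufb10 (15.4%). Counting any base of a site within 1 kb gave the same 38 (14.2%), as did merging sites within 1 kb of each other (13.8%). With the outermost start of each gene alone there were 34 (12.3%), and Cox7a2l, Atp5b and Atp5g2 were among the genes lost. With TSSs of protein-coding transcripts there were 37 (13.6%), without Atp5b, and the starts in RefSeq gave 29 of 77 (13.1%), also without Atp5b. With sites wider than 200 bp there were 33 (12.9%), without Ndufb8, Cyc1, Uqcrc2, Uqcrq and Atp5o, and the count for complex III fell to 2 of 9.

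The CpG content of the promoter was followed as the number of CpG per kb at the CpG-richest TSS of each gene. The median was 61.5 (58 to 69) for members with a site and 55 (48 to 62) for members without. For other protein-coding genes it was 82 (80 to 83) with a site and 42 (41 to 43) without. The members with a site thus had fewer CpG than other genes with a site, and their interval overlapped that of members without one. At 40 to 59 CpG per kb 15 of 38 members had a site (39.5%), against 14.1% of all protein-coding genes. At 60 to 79 the counts were 15 of 33 (45.5%) and 20.5%, and at 80 or more 8 of 13 (61.5%) and 32.1%. Under 40 none of 12 members had a site, which allows a share of up to 25.0%, and 1.44% of all protein-coding genes did. Of these 12 genes, 8 are the restricted forms of complex IV subunits, and the others were Ndufa3, Uqcrb, Cox7b and the readthrough entry of Atp5o. Under a stricter island definition (500 bp, GC over 55%, ratio over 0.65) all 38 members with a site and 47 of the 58 without kept an island.

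**Figure D4:**
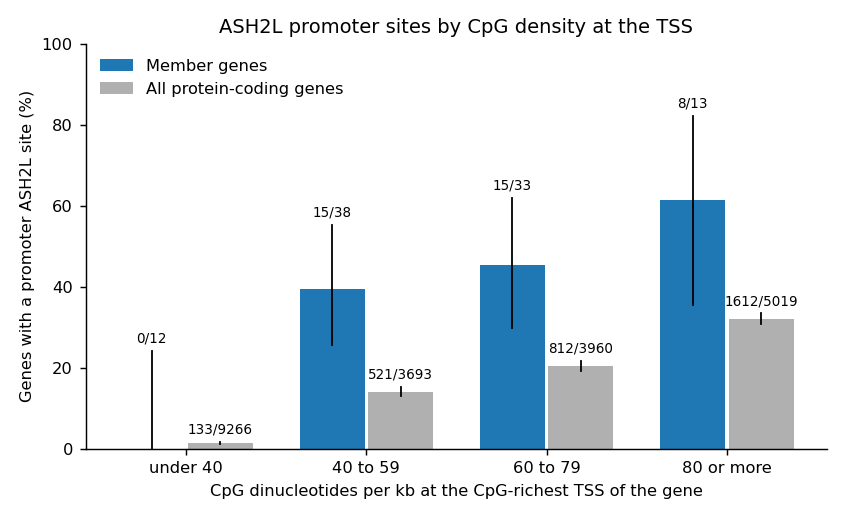
Percent of genes with a promoter ASH2L site (vertical axis) by CpG dinucleotides per kb at the CpG-richest TSS, for members (blue) and all protein-coding genes (grey), with Wilson 95% intervals as lines and counts above. The blue bars stand above the grey bars in the 3 bands from 40 CpG per kb, and no member under 40 had a site.

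Many of these genes start close to a gene on the opposite strand. A divergent TSS within 1 kb was found for 39 of the 96 members (40.6%, 31.3 to 50.6%), against 18.3% of all protein-coding genes. Of the 39, 19 had a site (48.7%, 33.9 to 63.8%), against 19 of the 57 without such a partner (33.3%, 22.5 to 46.3%). Over all protein-coding genes the shares with a site were 28.2% and 10.9%. The site lay within 1 kb of a TSS of another protein-coding gene for 14 of the 38 members (36.8%, 23.4 to 52.7%), against 26.9% of other genes with a site. To which of the genes such a site belongs cannot be told from its position.

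The partners were Ik for Ndufa2, Asb15 for Ndufa5, Fam126b for Ndufb3, Tatdn1 for Ndufb9, Eef1b2 for Ndufs1, Mrpl36 for Ndufs6, Ccdc127 for Sdha, Timm8b for Sdhd, Lrrc41 for Uqcrh, Gdf9 for Uqcrq, Wdr77 for Atp5f1, Gabpa for Atp5j, Esf1 for Ndufaf5 and Cebpz for Ndufaf7. Mrpl36, a mitochondrial ribosomal protein, and Timm8b act in the same organelle as the member beside them. Gabpa encodes the DNA-binding subunit of an ETS factor known to bind promoters of oxidative phosphorylation genes, and the closest of its TSSs to one of Atp5j is 93 bp away. Their shared 302 bp site, at chr16:84835461-84835762, was centred at another pair of TSSs, 9 bp upstream of one of Atp5j and 487 bp downstream of one of Gabpa. Some members with a close divergent partner had no site, among them, by the closest pair of TSSs, Ndufb11 (3 bp from Rbm10), Ndufa7 (10 bp from Rps28) and Atp5d (16 bp from Cbarp).

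Motifs were counted in the RefSeq windows of 77 of the 95 symbols, 30 with a site and 47 without. A gene with several RefSeq starts was counted once, with a match in any of its windows. A match is a description of the letters and not of binding. The YY1 pattern AANATGGC was found in 7 of 30 members with a site (23.3%, 11.8 to 40.9%) and in 12 of 47 without (25.5%, 15.3 to 39.5%), against 7.46% of all protein-coding genes in the RefSeq table. The NRF1 pattern GCGCATGCG was found in 5 of 30 (16.7%, 7.34 to 33.6%) and 6 of 47 (12.8%, 5.98 to 25.2%), against 2.61%. Both patterns were thus at a higher share in the members than in all genes, and at shares with overlapping intervals in members with and without a site. With a site, NRF1 matches were found at Cycs, Cox6a1, Atp5g2, Atp5l and Ndufaf5, and YY1 matches at Ndufb8, Ndufs4, Ndufs6, Ndufs7, Atp5b, Atp5f1 and Atp5j. The window of Atp5b is at its RefSeq start, away from its sites at internal TSSs. Without a site, NRF1 matches were found at Ndufa8, Ndufa11, Uqcr11, Uqcrc1, Atp5k and Ndufaf4.

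The ETS pattern CCGGAAGT was found in 1 of 30 (Uqcrh) and 4 of 47 (Ndufs3, Uqcr11, Cox8a and Atp5h), against 5.69%. The SP/KLF pattern CCCCGCCCC was found in 5 of 30 and 8 of 47 (17.3% of all), and the NFY patterns CCAATCAG, CCAATCGG, CCAATGAG and CCAATGGG in 2 of 30 and 8 of 47 (11.4%). The E-box CACGTG was found in 3 of 30 and 3 of 47 (8.91%), and the cyclic AMP response element (CRE) TGACGTCA in 3 of 30 (Cycs, Uqcrfs1 and Ndufa10) and 2 of 47 (2.54%). Overlaps between patterns were counted for each. At least 1 of the ETS, YY1 and NRF1 patterns was found in 13 of 30 members with a site (43.3%, 27.4 to 60.8%) and 21 of 47 without (44.7%, 31.4 to 58.8%), against 14.5% of all protein-coding genes in the RefSeq table.

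Other lists of metabolic, ribosomal and regulatory genes were counted in the same way. Of the mitochondrial ribosomal protein genes 32 of 78 had a site (41.0%, 30.8 to 52.1%), close to the 39.6% of the members, and of the cytosolic ribosomal protein genes 60 of 83 (72.3%, 61.8 to 80.8%). Of the enzymes of the tricarboxylic acid cycle other than the Sdh genes 6 of 18 had a site (33.3%, 16.3 to 56.3%), among them Cs, Dlst, Fh1, Idh3b and Sucla2. Of the glycolytic genes Eno1, Hk1 and Pfkm did (3 of 19, 15.8%, 5.52 to 37.6%). Assembly factors outside the symbol families had a site in 11 of 46 (23.9%, 13.9 to 37.9%), among them Bcs1l, which inserts the Rieske protein into complex III, Taco1 and Cox15 for complex IV, and Tmem70 for complex V. Regulators of nuclear respiratory genes or of mitochondrial DNA expression had one in 10 of 20 (50.0%, 29.9 to 70.1%). These were Creb1, Gabpa, Gabpb1, Gabpb2, Mterf3, Nrf1, Polg2, Tfb2m, Twnk and Yy1. Gabpa was counted through the site that it shares with Atp5j. None of the differences between these lists and the members was tested. The 13 protein-coding genes of the mitochondrial chromosome, which encode the remaining subunits, overlapped no site, and the 3 sites on that chromosome lay over mt-Rnr1 and mt-Rnr2.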

How the data were processed

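Reads were trimmed by the authors (Trim Galore), mapped with BWA to the mm10 build and filtered with SAMtools. Replicates were then merged and narrow peaks called with MACS2. The deposited values used here are site positions only (chromosome, start, end), pooled over all 8 libraries, with no counts, so no test across libraries or fit for the effect of dTAG could be made, and 0 columns of per-sample values were left out. Starts were read as counted from 0 and are printed counted from 1. TSSs came from GENCODE mouse release 21, base composition from GRCm38.p6 and promoter windows from the RefSeq table of that build. The complexes were assigned by symbol. CpG per kb was counted in 1000 bp centred on a TSS. Members were named, with values for the widest, closest and farthest sites, shared and multiple sites, complexes II and III, Cycs and the paralogues. Members and lists were chosen with earlier results of these data known. Intervals are 95% Wilson for shares and order-statistic for medians. Where no gene of a group had a site, the upper limit given is 3 counts over the number of genes, which is not a Wilson bound. Site assignment was tested on simulated data. Python 3.11.15, NumPy 2.4.6, SciPy 1.17.1 and pysam 0.24.0 were used. Symbols without a RefSeq entry were left out of the motif counts, and entries not in the annotation (Coa1, Coa8) out of the lists. Some genes are not reported by name here.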

Additional observations from a re-analysis of the deposited data

How the results depend on the processing

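Of 79 alternative settings over 20 results, 74 kept the value within the limits set (1.5 times a count, or the interval of a share or median) and 5 did not. With sites wider than 200 bp, complex III had 2 genes with a site. With the strict island definition, 81.0% of the members without a site had an island. With the outermost gene start alone, the median offset was 145 bp and 76.5% of the sites were centred downstream. In 200 bases centred on the TSS, the E-box was found in 0% of 30 members with a site. No direction was reversed. The number of members with a site ran from 29 of 77 (RefSeq starts) and 33 of 96 to 39 of 96. The settings with RefSeq starts, without the second Atp5o entry, without restricted paralogues and with Ndufa4 and Ndufa4l2 in complex I were chosen after the data were seen. No paired analysis was possible because the list has no column per sample and no result comes from a test. Leaving out a replicate, a stricter peak threshold and the comparison of dTAG with untreated cells could not be run on this list for the same reason. The study also names a list of sites changed after dTAG, which was not used here. The list does not show the depth behind a site, and a missing site does not show that ASH2L is absent.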

Other observations

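The share of members with a site was also counted by the number of annotated TSSs. With 1 to 2 TSSs 9 of 26 members had a site (34.6%), with 3 to 5 it was 13 of 39 (33.3%) and with 6 or more 16 of 31 (51.6%). Over all protein-coding genes the shares were 6.18%, 15.2% and 24.4%. The members' share was above that of all genes in each band, and the median number of TSSs was 4 both with and without a site.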
